A study of Mus musculus with 8 samples.

Results

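The genes described here encode 10 proteins of the cAMP pathway that holds a mouse oocyte at prophase of the first meiotic division: the receptors *Gpr3* and *Gpr12*, the G protein subunit *Gnas*, the adenylyl cyclases *Adcy3* and *Adcy9*, the phosphodiesterase *Pde3a*, and the protein kinase A (PKA) subunits *Prkaca*, *Prkacb*, *Prkar1a* and *Prkar2b*. They were chosen by gene symbol, with earlier results of these data known. All 10 were among the 17870 genes listed in the expression tables. RNA was measured in 8 oocyte libraries, 2 from each of 4 groups, with 15 oocytes per library. GV oocytes (germinal vesicle stage, arrested in prophase) and MII oocytes (arrested at metaphase of the second division) were wild-type and uninjected. The paper states that both of these control groups were taken from oocytes cultured in vitro. The Btg4wt and Btg4tm groups were MII oocytes that had received, by microinjection, cRNA for wild-type BTG4 or for a BTG4 mutant in which a threonine and the pair of serines after it were replaced by alanine. BTG4 is an adaptor that brings the CCR4-NOT deadenylase to maternal mRNA. All oocytes came from female ICR mice, an outbred stock, aged 6 weeks. The methods of the paper describe priming of the mice with pregnant mare's serum gonadotropin before oocytes were collected. The injected oocytes still carried their own *Btg4*, so both injected groups are overexpression models on a wild-type background. The paper reports that either exogenous protein seemed to lower the amount of endogenous BTG4. The zona pellucida had been removed from all oocytes. Nothing in the labels says whether the libraries of a group came from separate mice, so p-values measure the spread between libraries, which may be technical.

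In the growing oocyte, GPR3 is constitutively active and, through the stimulatory G protein alpha subunit encoded by *Gnas*, drives adenylyl cyclase to make cAMP. cAMP binds the regulatory subunits of PKA and frees its catalytic subunits, which keep the CDK1 and cyclin B kinase inactive by favouring WEE2 and restraining CDC25B. PDE3A is the main enzyme that breaks down oocyte cAMP, and cGMP that enters from the cumulus cells through gap junctions inhibits it until the luteinizing hormone surge. The arrest role of these proteins ends at germinal vesicle breakdown, so the MII libraries show their RNAs after that role is over.

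Libraries were primed with oligo(dT), which finds an RNA by its poly(A) tail. A change in the number of RNA molecules and a change in tail length therefore cannot be told apart. A pair of short elements near the 3′ end of an mRNA bear on tail length in maturing oocytes: the cytoplasmic polyadenylation element (CPE, searched as TTTTAT or TTTTAAT) and the polyadenylation signal (PAS, searched as AATAAA or ATTAAA). Both were searched on the transcript strand in the last 100 bases of the annotated 3′ UTR. A CPE lay in that window in 3 of the 10 genes, *Prkar2b*, *Adcy3* and *Prkacb*, against 20.2% of 10403 tested genes with a 3′ UTR of at least that length. A PAS lay there in 81.9% of those genes and in 8 of the 10 members. The windows of *Pde3a* and *Adcy9* held neither element. The 30 bases around each CPE, with the CPE in capitals, are shown for the 3 genes that hold one. The bases around the PAS, in capitals, are shown for *Gpr3* and *Prkar1a*, whose levels did not pass in any comparison of the main test. The sequences were read from GENCODE M21 transcripts on GRCm38, and each is written 5′ to 3′ on the strand of its gene.
Prkar2b, chr12:31958476-31958505, minus strand: ccttataataaagcacacTTTTATaataaa
Adcy3, chr12:4213487-4213516, plus strand: agaacaggactgTTTTATtaaaagctttac
Prkacb, chr3:146729604-146729633, minus strand: gaaaatgtgttTTTTAATtcatcaataacc
Gpr3, chr4:133209348-133209377, minus strand: ccaaccctactcAATAAAaaaaaaatggtt
Prkar1a, chr11:109669615-109669644, plus strand: ggtaggtcacagAATAAAaaagatgaaata
In *Prkar2b* the CPE is followed at once by a PAS that ends the annotated transcript. In *Adcy3* the CPE overlaps the PAS ATTAAA. A match of these letters is a description of the annotated end and not evidence of a site in use.

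Values are TPM (transcript shares of a library, corrected for gene length) scaled between libraries by the median of ratios, which moved a library by a factor of 0.948 to 1.11, and sequencing depth is unknown because TPM hold no counts. Replicates correlated across genes with Pearson's r of 0.982 to 0.987 on the log2 scale. All 12 oocyte markers were listed and none was under 1 TPM in any group. Of 20 cumulus and granulosa markers, 12 were listed, and *Foxl2*, *Amh*, *Amhr2*, *Inhba*, *Npr2*, *Has2*, *Ptx3* and *Tnfaip6* were not. The summed TPM of that list was 293 to 301 in GV, 594 to 595 in MII, 469 to 519 in Btg4wt and 371 to 397 in Btg4tm. Without *Serpine2* the sum was 38.3 to 50 over all libraries. The summed share of the mitochondrially encoded RNAs was 0.626 to 0.652% in GV, 2.60 to 2.71% in MII, 1.75 to 2.05% in Btg4wt and 0.765 to 1.02% in Btg4tm. The part of these shifts in the results was not tested.

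The first comparison asked how the RNAs of the arrest pathway stood after maturation, in MII against GV oocytes. *Pde3a* and *Prkar2b* were higher in MII, by 2.17-fold and 1.96-fold, and no member was lower. The other 7 tested members did not pass. Fold changes are on the log2(scaled TPM + 1) scale, which understates the change of low genes, and were tested with limma across 13968 genes with Benjamini-Hochberg adjustment. A member was said to pass at an adjusted p under 0.05, and to be called when its log2 fold change also exceeded 1 in size. *Pde3a* was the 1 of 9 tested members called higher, where 12.5% of all genes tested were called higher and 24.0% lower. By adjusted p alone, 2 of the 9 passed as higher and 0 as lower, beside 29.8% and 32.8% of all genes. The share of members that passed as higher was no larger than that of all genes. The median log2 fold change of the 9 was 0.37, against 0.00 for all genes tested.

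The comparison of Btg4tm with Btg4wt asked what the mutated residues changed in injected MII oocytes. *Pde3a*, *Prkar2b* and *Adcy3* were lower in Btg4tm, to 0.426, 0.655 and 0.595 of the Btg4wt level on the same scale. *Pde3a* was the 1 of 9 called lower, where 7.94% of all genes were called lower and 18.1% higher. By adjusted p alone, 3 of the 9 passed as lower and 0 as higher, beside 23.3% and 26.2% of all genes. The median of the 9 was -0.43 and that of all genes 0.01.

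**Figure D1:**
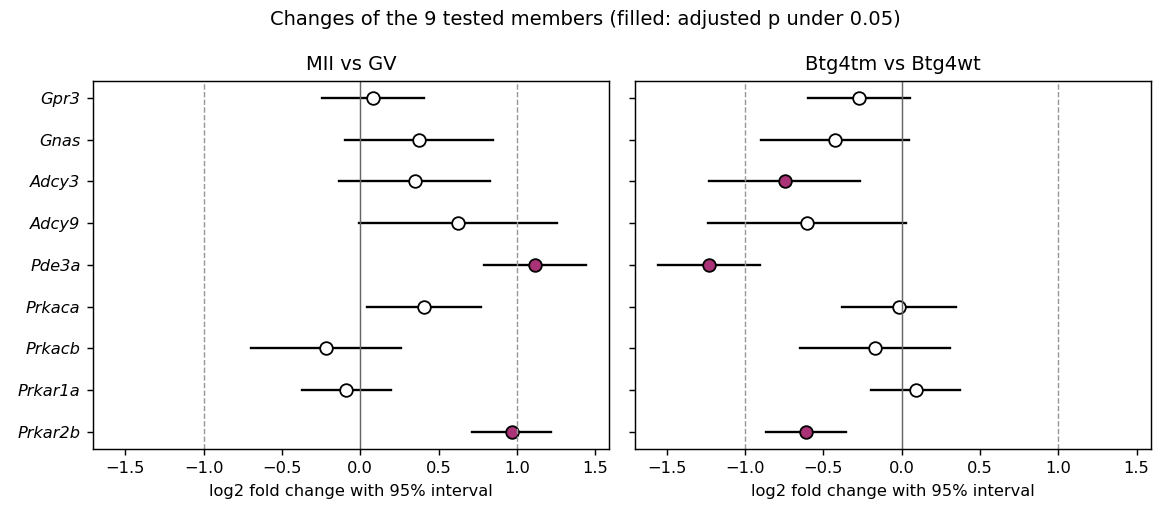
Log2 fold change with its 95% interval for the 9 tested members in MII against GV (left) and in Btg4tm against Btg4wt (right); filled points had an adjusted p under 0.05 and dashed lines mark a log2 fold change of 1 in either direction. *Pde3a* and *Prkar2b* lie to the right of 0 in the left panel, and *Pde3a*, *Prkar2b* and *Adcy3* to the left of 0 in the right panel.

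Among the receptors, *Gpr3* was the most abundant member in GV and MII oocytes. Its scaled TPM was 70.3 and 64.2 in GV, 71.4 and 70.7 in MII, 71.5 and 72.4 in Btg4wt, and 68.3 and 51.5 in Btg4tm. The 6 libraries outside Btg4tm lay in a narrow band, and the second Btg4tm library lay below it. In MII against GV the log2 fold change was 0.08 with a standard error (SE) of 0.14, an adjusted p of 0.64 and a 95% interval of -0.24 to 0.40. In Btg4tm against Btg4wt it was -0.27 with an adjusted p of 0.14, and without the first Btg4tm library it was -0.48 with an adjusted p of 0.017. *Gpr3* (ENSMUSG00000049649) lies on the minus strand at chr4:133209340-133212536, and 7.46% of its exonic bases overlap *Cd164l2* on the opposite strand.

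*Gpr12*, the close relative of *Gpr3*, was near the limit of what was listed. It had 0.700 and 0.247 scaled TPM in GV, 0.898 and 0.500 in MII, 0.497 and 0.295 in Btg4wt, and 1.42 and 0.526 in Btg4tm. Replicates differed as much as groups did. It did not reach 1 TPM in 2 libraries, so it was left out of the main test. In a fit with no filter on low values, its log2 fold change was 0.21 in MII against GV with an adjusted p of 0.53.

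*Gnas*, which encodes the stimulatory alpha subunit, was low. It had 0.862 and 0.655 scaled TPM in GV, 1.43 and 1.13 in MII, 1.64 and 1.49 in Btg4wt, and 0.921 and 0.890 in Btg4tm. Both MII libraries were above both GV libraries, as in 41.1% of all genes tested. Both Btg4tm libraries were below both Btg4wt libraries, as in 36.7% of all genes tested. Neither difference passed, with log2 fold changes of 0.37 (adjusted p = 0.15) and -0.43 (adjusted p = 0.12) in limma, although both passed with quantile normalization, at 0.61 (adjusted p = 0.030) and -0.59 (adjusted p = 0.040). The gene (ENSMUSG00000027523, chr2:174284320-174346744, plus strand) shares 22.0% of its exonic bases with *Nespas* and *Gm20721* on the opposite strand. Counting took no account of strand, so reads in a shared stretch cannot be told apart by strand. Whether such reads were dropped or counted, and the effect on the level of *Gnas*, was not tested.

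The adenylyl cyclases make cAMP, and both members were near or below a few TPM. *Adcy3* had 0.657 and 0.846 scaled TPM in GV, 1.06 and 1.41 in MII, 1.69 and 1.52 in Btg4wt, and 0.607 and 0.494 in Btg4tm. The Btg4tm libraries were the lowest of all 8. The drop against Btg4wt passed, with a log2 fold change of -0.75 (SE 0.21, adjusted p = 0.018), but leaving out either Btg4wt library or the second Btg4tm library took the adjusted p to 0.077, 0.054 and 0.071. In MII against GV the value was 0.35 (adjusted p = 0.18). *Adcy3* (ENSMUSG00000020654, chr12:4133103-4213525, plus strand) shares 22.1% of its exonic bases with *Cenpo* on the opposite strand. *Adcy9* had 2.09 and 2.42 scaled TPM in GV, 5.06 and 3.14 in MII, 4.29 and 2.50 in Btg4wt, and 1.85 and 1.81 in Btg4tm. The MII and Btg4wt replicates differed widely. Its log2 fold changes of 0.63 in MII against GV and -0.61 in Btg4tm against Btg4wt had adjusted p-values of 0.078 and 0.10. Leaving out 1 library moved the first between 0.36 (without the first MII library) and 0.91 (without the second, adjusted p = 0.040), and the second between -0.31 (without the first Btg4wt library) and -0.91 (without the second, adjusted p = 0.049). *Adcy9* (ENSMUSG00000005580) lies on the minus strand at chr16:4287529-4420498.

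*Pde3a*, the phosphodiesterase that degrades oocyte cAMP, showed the widest change of the members. Its scaled TPM was 12.8 and 15.9 in GV, 31.9 and 32.3 in MII, 33.4 and 33.9 in Btg4wt, and 14.3 and 13.2 in Btg4tm. The libraries fell into a high pair of groups (MII and Btg4wt) and a low pair (GV and Btg4tm) with a wide gap between them. In MII against GV the log2 fold change was 1.11 (SE 0.14, 95% interval 0.79 to 1.44, adjusted p = 0.00021). In Btg4tm against Btg4wt it was -1.23 (SE 0.14, 95% interval -1.56 to -0.91, adjusted p = 0.00019). Both passed in all 8 fits that left out 1 library, with ranges of 0.97 to 1.26 and -1.29 to -1.18, although without the first GV library the first was under the fold threshold. Btg4tm against GV gave -0.05 (95% interval -0.37 to 0.28, adjusted p = 0.85). The gene (ENSMUSG00000041741, chr6:141249269-141507448, plus strand) has an annotated 3′ UTR of 8555 bases in a transcript of 12302 bases, longer than 99% of tested genes. That UTR holds 17 CPE matches over its whole length and none in the last 100 bases. *Gm28523* on the opposite strand overlaps 5.82% of its exonic bases.

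**Figure D2:**
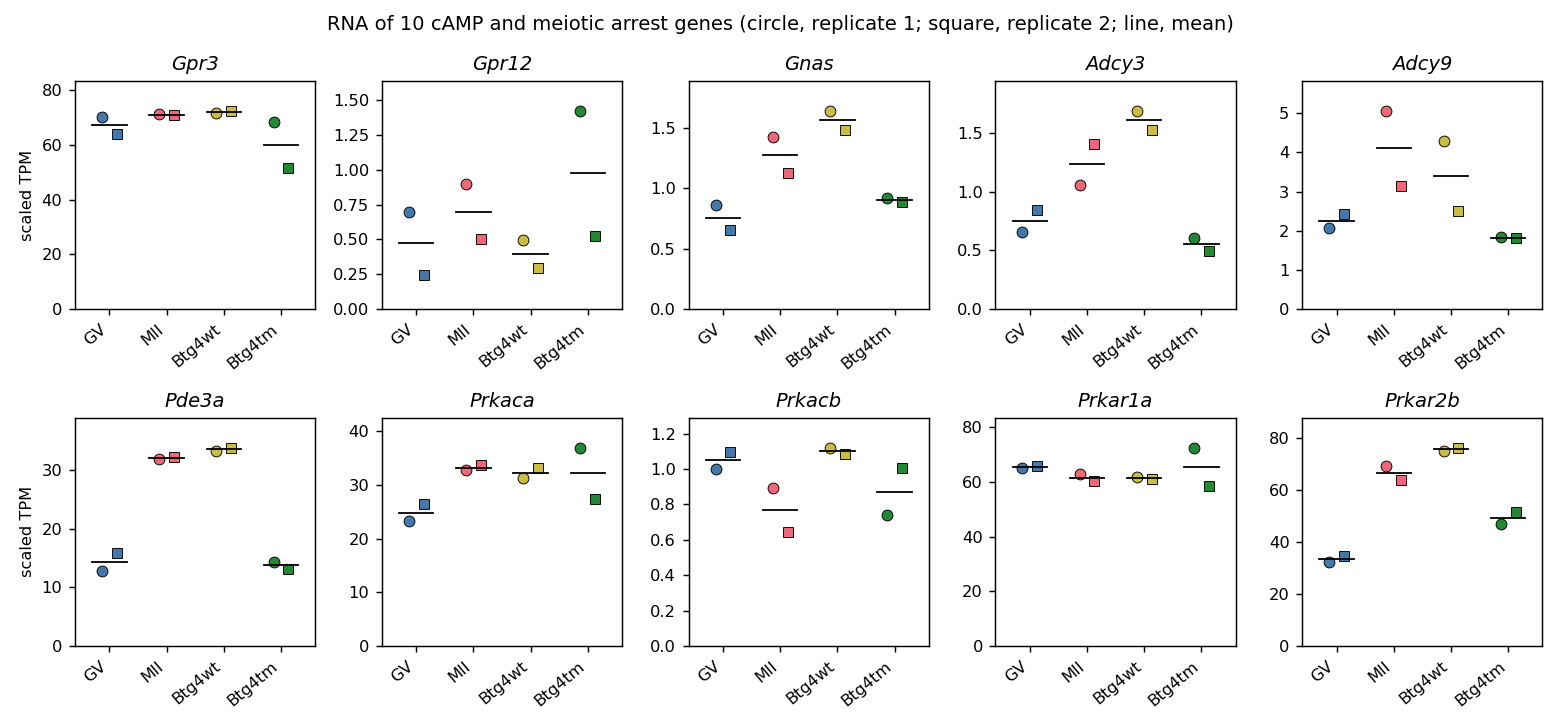
Scaled TPM of the 10 genes in each of the 8 libraries, with a panel per gene and its own axis from 0; circles are replicate 1, squares replicate 2 and lines group means. *Pde3a* has 12.8 to 15.9 in GV and 13.2 to 14.3 in Btg4tm, against 31.9 to 33.9 in MII and Btg4wt.

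The catalytic subunits of PKA phosphorylate its targets. *Prkaca*, the main catalytic gene here, had 23.3 and 26.4 scaled TPM in GV, 32.8 and 33.6 in MII, 31.2 and 33.2 in Btg4wt, and 37.0 and 27.4 in Btg4tm. The GV libraries were the lowest 2 of the 8. The log2 fold change in MII against GV was 0.41 (SE 0.16), and its adjusted p of 0.052 missed the threshold. It passed as higher with quantile normalization (0.66), a filter at 5 TPM (0.41), the 4 control libraries alone (0.42) or either Btg4tm library left out (0.40 each), and as lower with mitochondrial scaling (-1.73). *Prkacb* had 1.0 and 1.10 in GV, 0.891 and 0.645 in MII, 1.12 and 1.08 in Btg4wt, and 0.738 and 1.0 in Btg4tm. No comparison of *Prkacb* passed in the main test. With mitochondrial scaling it passed as lower in MII against GV, at -1.28, where the median of all genes was -1.74. *Prkaca* (ENSMUSG00000005469) lies at chr8:83972993-83996443 on the plus strand and *Prkacb* (ENSMUSG00000005034) at chr3:146729574-146812990 on the minus strand.

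The regulatory subunits hold the catalytic subunits inactive until cAMP binds. The type I gene *Prkar1a* had 65.3 and 65.8 scaled TPM in GV, 63.0 and 60.3 in MII, 61.7 and 61.0 in Btg4wt, and 72.7 and 58.6 in Btg4tm. Its log2 fold change in limma was -0.09 in MII against GV (95% interval -0.37 to 0.20, adjusted p = 0.56). In Btg4tm against Btg4wt it was 0.09 (95% interval -0.20 to 0.37, adjusted p = 0.59). With mitochondrial scaling *Prkar1a* passed in both comparisons, at -2.27 and 1.16. The type II gene *Prkar2b* had 32.4 and 34.5 in GV, 69.0 and 63.7 in MII, 75.1 and 76.3 in Btg4wt, and 47.0 and 51.5 in Btg4tm. Its 4 groups did not overlap, with Btg4tm between GV and MII. Both MII libraries were above both GV libraries, as in 41.1% of all genes tested. Both Btg4tm libraries were below both Btg4wt libraries, as in 36.7%. The rise in MII over GV was 0.97 on the log2 scale (SE 0.11, 95% interval 0.71 to 1.22, adjusted p = 0.00011), and the fall in Btg4tm against Btg4wt was -0.61 (SE 0.11, 95% interval -0.86 to -0.36, adjusted p = 0.0021). *Prkar1a* (ENSMUSG00000020612, chr11:109649405-109669656, plus strand) and *Prkar2b* (ENSMUSG00000002997, chr12:31958476-32061296, minus strand) shared no exonic base with another gene.

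These directions are relative to the other RNAs of a library. When libraries were scaled to their mitochondrially encoded RNAs, the median over all tested genes was -1.74 in MII against GV and to 0.88 in Btg4tm against Btg4wt. *Pde3a* and *Prkar2b* then read -1.0 and -1.20 in MII against GV, which is 0.74 and 0.54 above that median. In Btg4tm against Btg4wt they read -0.19 and 0.46, which is 1.07 and 0.42 below it, and neither passed. With TPM as deposited, *Pde3a* read 0.97 in MII against GV, just under the fold threshold, and still passed. Quantile normalization moved the median of all genes to 0.27 and -0.18 in these comparisons. With it *Adcy3*, *Adcy9*, *Gnas* and *Prkaca* also passed as higher in MII, and *Gpr3*, *Adcy9* and *Gnas* as lower in Btg4tm.

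Ratios between RNAs of 1 library do not depend on the scaling. They were chosen after the values had been seen and are given as a description, with no test. *Pde3a* over *Gpr3* was 0.183 and 0.247 in GV, 0.447 and 0.456 in MII, 0.466 and 0.468 in Btg4wt, and 0.210 and 0.256 in Btg4tm. This ratio was higher in every MII and Btg4wt library than in any GV or Btg4tm library. Type II over type I regulatory RNA (*Prkar2a* plus *Prkar2b*, over *Prkar1a*) was 0.893 and 0.790 in GV, 1.83 and 1.75 in MII, 1.78 and 1.87 in Btg4wt, and 1.20 and 1.29 in Btg4tm. Type I was the more abundant in GV and type II in the other 3 groups. All regulatory over all catalytic RNA ran from 4.23 to 5.31 over the 8 libraries. It was 5.10 and 4.28 in GV, 5.31 and 4.84 in MII, 5.30 and 5.11 in Btg4wt, and 4.23 and 4.72 in Btg4tm. GV overlapped MII and Btg4tm but not Btg4wt, and MII overlapped Btg4wt. Both Btg4tm libraries lay below every MII and Btg4wt library.

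**Figure D3:**
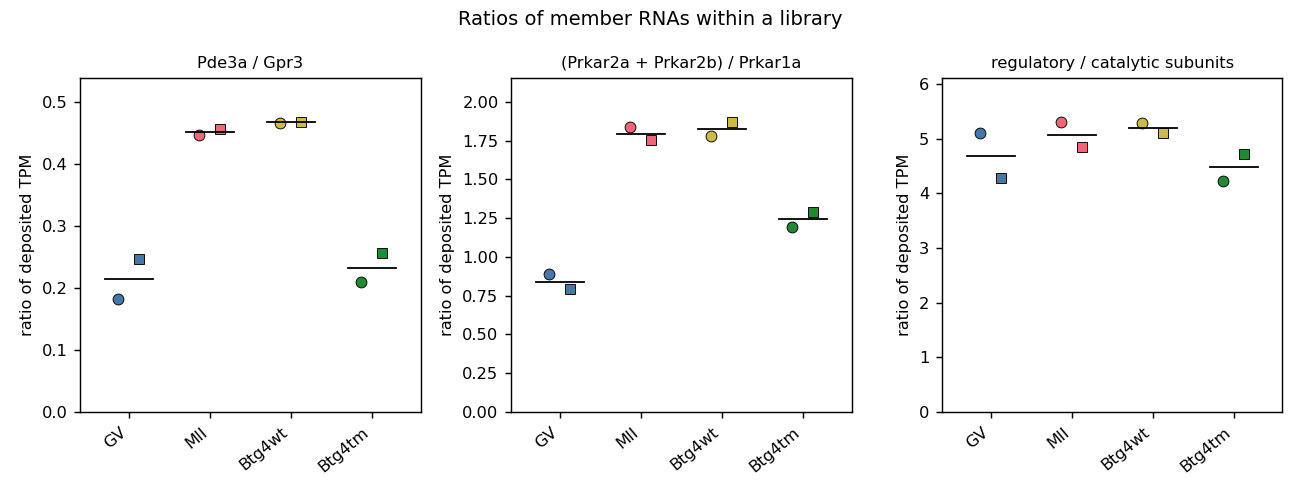
Ratios of deposited TPM within each library for *Pde3a* over *Gpr3*, for type II over type I regulatory subunits of PKA, and for regulatory over catalytic subunits; circles are replicate 1, squares replicate 2 and lines group means. The first 2 ratios separate MII and Btg4wt from GV and Btg4tm. In the third, which runs from 4.23 to 5.31, GV overlaps MII and Btg4tm, and Btg4tm lies below MII and Btg4wt.

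In GV oocytes the order of levels was *Gpr3*, *Prkar1a*, *Prkar2b*, *Prkaca*, *Pde3a*, *Adcy9*, *Prkacb*, *Gnas*, *Adcy3* and *Gpr12*. The ranges of *Gpr3* and *Prkar1a* overlapped, as did those of *Gnas* with *Adcy3* and of *Adcy3* with *Gpr12*. In MII the order of the upper 5 was *Gpr3*, *Prkar2b*, *Prkar1a*, *Prkaca* and *Pde3a*, and in Btg4wt *Prkar2b* led. In Btg4tm the order of the upper 5 was *Prkar1a*, *Gpr3*, *Prkar2b*, *Prkaca* and *Pde3a*, and the ranges of the first pair overlapped.

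Btg4wt against MII asked what injection of wild-type BTG4 changed in MII oocytes. None of the 9 members passed in limma, and of all 13968 genes 0% passed, while 1655 had an unadjusted p under 0.05. *Pde3a* gave 0.07 (95% interval -0.26 to 0.39) and *Prkar2b* 0.19 (95% interval -0.07 to 0.44). Btg4tm against GV set the mutant MII oocytes beside arrested ones. *Prkar2b* was higher in Btg4tm, with a log2 fold change of 0.54 (SE 0.11, adjusted p = 0.020), and was the 1 of 9 that passed, where 7.66% of all genes passed as higher and 3.73% as lower. With the fold threshold 0 of 9 were called, against 1.02% of all genes higher and 1.02% lower. The adjusted p of *Prkar2b* was 0.080, 0.073 and 0.072 without the first GV, the second GV or the second Btg4tm library, and 0.055 with TPM as deposited. Btg4tm against GV shares libraries with the 2 main comparisons, so its values are only set side by side with theirs.

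The wider pathway was read from a list of 79 genes in 9 classes, the members included. Of these, 69 were listed and 56 tested. In MII against GV 11 were called higher and 6 lower, beside 12.5% and 24.0% of all genes tested, and by adjusted p alone 26 were higher and 8 lower, beside 29.8% and 32.8%. In Btg4tm against Btg4wt 4 were called higher and 7 lower, beside 18.1% and 7.94%, and by adjusted p alone 7 were higher and 23 lower, beside 26.2% and 23.3%. The counts by class below are by adjusted p alone and carry no test against these shares. The medians of the 56 were 0.46 and -0.28, against 0.00 and 0.01 for all genes. Of the 26 that passed as higher in MII, 19 (73.1%) passed as lower in Btg4tm, compared with 58.7% of the 4168 genes higher in MII overall. Of the 8 that passed as lower in MII, 6 (75%) passed as higher in Btg4tm, compared with 72.3% of 4575.

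Among phosphodiesterases, 5 of 10 tested passed as higher in MII and 2 as lower, beside 29.8% and 32.8% of all genes. *Pde3b*, the closest paralog of *Pde3a*, went from 7.89 and 8.40 scaled TPM in GV to 21.8 and 23.5 in MII, and was 20.8 and 21.9 in Btg4wt and 8.99 and 10.2 in Btg4tm. It had the same split of groups as *Pde3a*, with log2 fold changes of 1.37 (adjusted p = 7.3e-05) and -1.08 (adjusted p = 0.00043). *Pde8a*, a cAMP-specific phosphodiesterase, gave 1.47 (adjusted p = 0.00055) and -1.17 (adjusted p = 0.0028). None of the 7 tested adenylyl cyclases passed in MII against GV, and 2 of them, *Adcy3* and *Adcy6*, passed as lower in Btg4tm, beside 23.3% of all genes.

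Of the 8 G protein subunits, 6 passed as higher in MII and 4 as lower in Btg4tm, beside 29.8% and 23.3% of all genes. *Gng5* and *Gnb1*, of the gamma and beta families, rose by 1.60 and 1.58 on the log2 scale in MII (adjusted p = 0.00012 and 5.7e-05) and were lower in Btg4tm by -0.57 and -0.77 (adjusted p = 0.032 and 0.0043). Without the first Btg4wt, the second Btg4wt or the first Btg4tm library the adjusted p of *Gng5* was 0.071, 0.12 and 0.16. *Gnai1* and *Gnai3* encode inhibitory alpha subunits, which act against adenylyl cyclase. They rose in MII by 1.20 and 1.03 (adjusted p = 0.00027 and 0.00011). In Btg4tm *Gnai1* was lower by -0.65 (adjusted p = 0.010, but 0.069 and 0.059 without the second Btg4wt or the second Btg4tm library), while *Gnai3* gave -0.12 (adjusted p = 0.43).

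The A-kinase anchoring proteins tether PKA to sites in the cell. Of 9 tested, 8 passed as higher in MII and 8 as lower in Btg4tm, beside 29.8% and 23.3% of all genes. In Btg4tm *Akap12*, *Akap13* and *Akap9* gave -1.11, -1.04 and -0.61 (adjusted p = 0.00010, 0.00049 and 0.017), and *Akap9* did not pass without the second Btg4wt or the first Btg4tm library (adjusted p = 0.077 and 0.068). In MII the same 3 rose by 0.61, 0.90 and 1.08 (adjusted p = 0.0017, 0.00070 and 0.00070). *Prkar2a*, the paralog of *Prkar2b*, rose in MII by 1.02 (adjusted p = 0.0075, and 0.056 without the second GV library) and gave -0.22 in Btg4tm (adjusted p = 0.51). *Pkig*, an inhibitor of the PKA catalytic subunits, moved the other way. It had 42.8 and 44.8 scaled TPM in GV, 14.4 and 12.3 in MII, 12.2 and 11.4 in Btg4wt, and 32.9 and 39.8 in Btg4tm, with log2 fold changes of -1.65 (adjusted p = 3.1e-05) and 1.54 (adjusted p = 7.3e-05).

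Of 12 genes of the switch to CDK1 activity that PKA regulates, 5 passed as higher in MII and 3 as lower, beside 29.8% and 32.8% of all genes. In Btg4tm 3 passed as higher and 3 as lower, beside 26.2% and 23.3%. *Cdk1*, the kinase that drives entry into M phase, had 84.8 and 79.0 scaled TPM in GV, 4.97 and 3.09 in MII, 3.88 and 2.75 in Btg4wt, and 56.3 and 59.5 in Btg4tm. Its log2 fold changes were -4.07 (adjusted p = 2e-06) and 3.78 (adjusted p = 4.9e-06). Its partner *Ccnb1*, cyclin B, rose in MII by 1.09 (adjusted p = 6.9e-05) and was lower in Btg4tm by -0.41 (adjusted p = 0.017, but 0.085 and 0.066 without the first Btg4wt or the second Btg4tm library and 0.067 with quantile normalization). *Wee1*, a kinase that inhibits CDK1, fell in MII by 1.26 (adjusted p = 0.00077) and gave 0.44 in Btg4tm (adjusted p = 0.10, and 0.041 without the first Btg4tm library). Both of the 2 tested genes of cGMP supply passed as lower in MII and as higher in Btg4tm, beside 32.8% and 26.2% of all genes. Of these, *Gja4*, the connexin of the gap junction between oocyte and cumulus cells through which cGMP passes, had 1119 and 1328 scaled TPM in GV and 130.2 and 132.4 in MII. It had 161 and 158 in Btg4wt and 685 and 707 in Btg4tm, with log2 fold changes of -3.21 (adjusted p = 4.8e-07) and 2.11 (adjusted p = 2.6e-06).

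**Figure D4:**
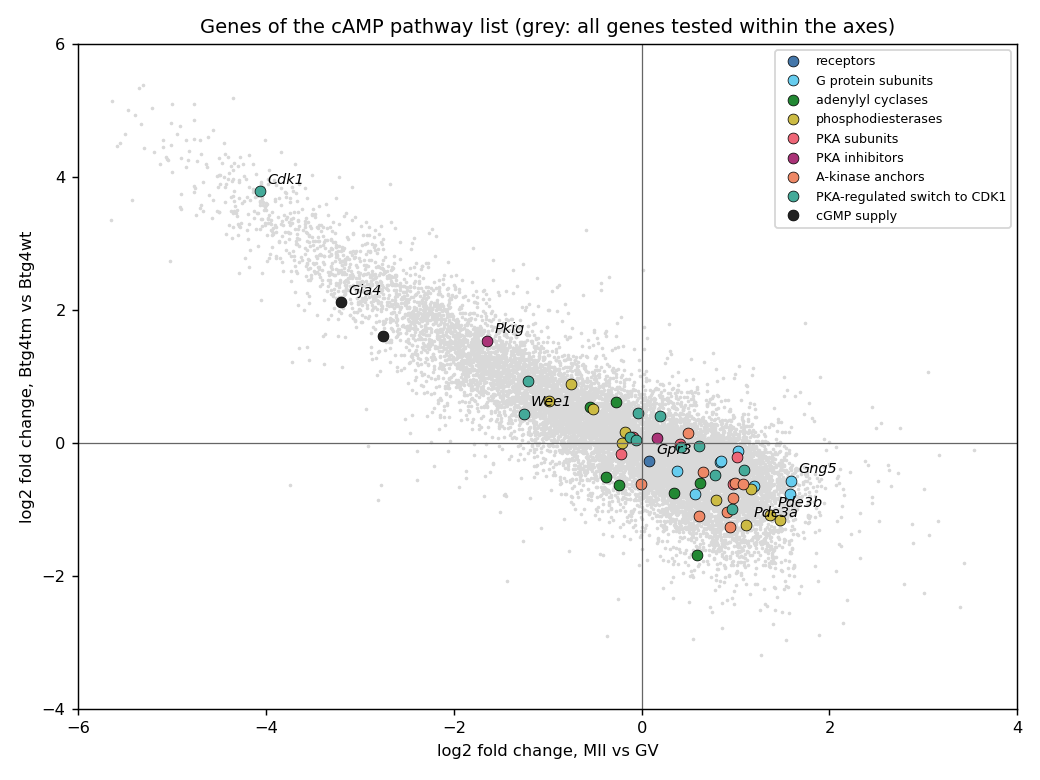
Log2 fold change in Btg4tm against Btg4wt (vertical) plotted on that in MII against GV (horizontal) for the 56 tested genes of the pathway list, coloured by class, over all genes tested in grey. *Cdk1*, *Gja4* and *Pkig* lie at the upper left and *Pde3a* and *Pde3b* at the lower right, along the band of all genes.

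The genes most like *Pde3a* over the 8 libraries, of 6882 genes averaging 10 or more scaled TPM, were *Utp20*, *Wwc2* and *Mbtd1*, each with a Pearson's r of 0.998. The means of *Mbtd1* were 30.6 in GV, 93.9 in MII, 94.9 in Btg4wt and 29.5 in Btg4tm. For *Gpr3* they were *Eif2ak3*, *Dhx29* and *Ttll4*, with r of 0.940, 0.935 and 0.921. These values describe profiles over 8 libraries in 4 groups that share the scaling.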

How the data were processed

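Libraries were made by Smart-seq2 from polyadenylated RNA. Per the labels and the methods of the study, the authors trimmed reads with Trim Galore 0.6.10, aligned them to GRCm38 with HISAT2 2.2.0 and the GENCODE M25 annotation, and counted exonic reads with featureCounts 2.0.6 without regard to strand. The authors deposited TPM per gene symbol. The gene lengths behind the TPM and the filter on listed genes are not given in the sources used here. The labels speak of 3 samples per group, and 2 per group were analysed here. Groups came from the sample titles.

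Median-of-ratios scaling was applied to the 15962 genes that all libraries list, and the scaled TPM were taken as log2(TPM + 1). Genes had to reach 1 TPM in 2 or more libraries, which left 13968, and these were fitted with limma 3.58.1 in R 4.3.3 (lmFit, contrasts, eBayes with trend) over all 8 libraries, and 9 of the 10 members passed this filter. The procedure was tested on simulated data. Counting error cannot be had from TPM, so precision rests on 2 libraries per group. The members, gene lists and tests were chosen with earlier results of these data known. Pathway genes were named when called in either main comparison and averaging 5 or more scaled TPM, by size of change. Positions and 3′ UTRs came from GENCODE M21 on GRCm38, taking the principal coding transcript with the longest 3′ UTR. Each result was also computed without scaling, with quantile or mitochondrial scaling, with 0.1 as the pseudocount, with the filter dropped or set to 5 TPM, from the 4 compared libraries alone, with replicate as a block, without the fold threshold, and with each library left out.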

Additional observations from a re-analysis of the deposited data

How the results depend on the processing

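The deviations of same-numbered libraries correlated across genes at -0.054 to 0.055, so no shared shift by replicate number was seen. These values cannot show whether same-numbered libraries were collected or prepared together. With the replicate block, *Pde3a* gave 1.11 and -1.23 and *Prkar2b* 0.97 and -0.61 in the 2 main comparisons, and the block changed no call of a member. With mitochondrial scaling in MII against GV, 0 members were called higher and 7 lower, beside 7 and 11403 of all 13968 genes. With no minimum fold 2 members were higher, beside 4168 of all genes. The count of members called higher there was 0 with TPM as deposited (1145 of all genes) and 2 with quantile normalization (3102). It ran from 0 to 2 when libraries were left out, with 0 without the first GV library and 2 without the second GV or the second MII library. In Btg4tm against Btg4wt the count called lower was 2 with a pseudocount of 0.1, beside 1466 of all genes. It was 3 with no minimum fold, beside 3251. Mitochondrial scaling called 0 members lower and 2 higher there, beside 69 and 6089 of all genes. In Btg4tm against GV 1 was higher with no minimum fold, beside 1070 of all genes.

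Mitochondrial scaling, which moved the median of all genes as given in the report, turned these directions in MII against GV: *Gpr3* to -2.10, *Adcy3* -0.74, *Adcy9* -1.04, *Gnas* -0.73, *Pde3a* -1.0, *Prkaca* -1.73, *Prkar2b* -1.20, *Gng5* -0.58, *Gnb1* -0.60, *Pde8a* -0.64, *Pde3b* -0.69, *Gnai1* -0.96, *Akap12* -1.56, *Ccnb1* -1.12, *Akap9* -0.81, *Akap13* -1.17, *Gnai3* -1.17 and *Prkar2a* -1.13. In Btg4tm against Btg4wt it turned *Gpr3* to 0.80, *Adcy9* 0.17, *Gnas* 0.17, *Prkaca* 1.04, *Prkacb* 0.36, *Prkar2b* 0.46, *Gng5* 0.51, *Gnb1* 0.31, *Gnai1* 0.42, *Ccnb1* 0.68, *Akap9* 0.34, *Gnai3* 0.96 and *Prkar2a* 0.84. Among the members, in Btg4wt against MII it turned *Adcy9* to 0.14, *Prkaca* 0.43 and *Prkar1a* 0.48, and in Btg4tm against GV *Gnas* to -0.21, *Prkaca* -0.27 and *Prkar2b* -0.08. Some values kept their direction under it. In Btg4tm against Btg4wt *Pde3a* (-0.19), *Adcy3* (-0.21), *Pde8a* (-0.13), *Pde3b* (-0.06), *Akap12* (-0.04) and *Akap13* (-0.03) no longer passed. *Prkar1a* (1.16) and *Wee1* (1.34) passed there as higher. In MII against GV *Prkacb* (-1.28) and *Prkar1a* (-2.27) passed as lower, as did *Gpr3* (-0.80) and *Pde3a* (-0.66) in Btg4tm against GV. With mitochondrial scaling the median of all genes was -0.64 in Btg4tm against GV and 0.39 in Btg4wt against MII. In Btg4tm against GV *Pde3a* was then at percentile 48.6 of all genes, close to that median, and *Gpr3* at percentile 36.8.

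The other turns of members, and of *Prkar2a* in the main comparisons, were of values that passed in neither fit. With TPM as deposited *Gpr3* read -0.08 in MII against GV and *Prkar1a* 0.00 in Btg4wt against MII. With quantile normalization *Prkacb* read 0.02 and *Prkar1a* 0.12 in MII against GV, *Prkar1a* -0.16 in Btg4tm against Btg4wt and *Pde3a* 0.00 in Btg4tm against GV. With the 4 libraries alone *Pde3a* read 0.02 and *Prkar1a* 0.07 in Btg4tm against GV. Leaving out libraries gave -0.23 to 0.19 for *Prkaca*, -0.07 to 0.24 for *Prkar1a* and -0.57 to 0.14 for *Prkar2a* in Btg4tm against Btg4wt. It gave -0.51 to 0.08 for *Adcy9*, -0.08 to 0.01 for *Prkaca* and -0.04 to 0.03 for *Prkar1a* in Btg4wt against MII, and -0.39 to 0.01 for *Gpr3*, -0.18 to 0.11 for *Pde3a* and -0.18 to 0.13 for *Prkar1a* in Btg4tm against GV. A group left with 1 library was assumed to vary like the others, and the causes were not tested.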
